A study of Mus musculus with 6 samples.

Results

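Transcripts of 8 genes of interleukin-6 type signalling and of colony-stimulating factor 1 were followed in 3T3-L1 adipocytes exposed to antiretroviral drugs and conjugated linoleic acid (CLA). The genes were Il6, Lif and Csf1 (secreted ligands), Il6ra, Il6st and Osmr (receptor chains), Stat3 (a transcription factor) and Socs3 (a feedback inhibitor). They were chosen by symbol from the 18194 genes that had a probe set annotated to 1 gene alone. The 8 genes had 23 of the 45101 probe sets, and the brightest probe set of a gene, by its mean over the 6 arrays, stood for it. A value under the median of the whole table, 6.55 on the log2 scale, was treated as low. All 8 genes reached that level on at least 1 array, as did 12386 of all genes, and only Il6 among the 8 had low values, on 3 arrays.

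3T3-L1 is a line of mouse preadipocytes that turns into fat cells after induction, here with insulin, 3-isobutyl-1-methylxanthine and dexamethasone, and all groups were kept in insulin during the exposure of 5 days. In the first experiment the cells received ritonavir at 20 µM, an inhibitor of the HIV protease, tenofovir at 1 µM, an inhibitor of reverse transcriptase, or the vehicle ethanol at 0.1%. Cells of the second experiment all received ritonavir at 20 µM, together with t10,c12-CLA at 100 µM, c9,t11-CLA at 100 µM, or DMSO at 0.1%. Each group was 1 array of RNA pooled from 4 repeats of the experiment, so the spread between replicates cannot be given and no difference was tested. The sources used here do not give the vehicle that came with the drugs and with the CLA isomers. The pools come from 1 cell line, and a lower level can mean fewer mature fat cells or less RNA per cell, which cannot be told apart in such samples.

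Interleukin-6 binds its receptor chain, encoded by Il6ra, and the pair then engages gp130, the signalling chain shared by the family and encoded by Il6st. Leukaemia inhibitory factor (Lif) and oncostatin M use gp130 together with other partner chains, Osmr among them. Janus kinases at gp130 then phosphorylate STAT3, which turns on genes that include Socs3, whose product binds gp130 and shuts the signal down. Csf1 encodes macrophage colony-stimulating factor, a ligand of another class with a receptor of its own. Fat cells and their precursors are known sources of interleukin-6 and of this factor.

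The arrays had medians between 6.54 and 6.56. Of 10 named mature adipocyte markers, all 10 reached the table median on the tenofovir and ethanol arrays and 9 on each array with ritonavir, where Lep was low. Their mean value was 9.44 on the ritonavir array, 12.95 on the tenofovir array and 12.93 on the ethanol array, and 10.78 with t10,c12-CLA, 12.15 with c9,t11-CLA and 12.01 with DMSO. Of 10 macrophage markers, 7 stayed under the median on every array, Adgre1, Ptprc and Itgam included, and so did 5 of 6 endothelial markers. The mean of the macrophage list lay between 5.33 on the tenofovir array and 5.85 on the array with t10,c12-CLA.

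Il6 was the member with the widest range. Its value was 8.79 on the ritonavir array, 5.56 on the tenofovir array and 5.42 on the ethanol array. In the second experiment it was 7.59 with t10,c12-CLA, 6.36 with c9,t11-CLA and 6.92 with DMSO. The ritonavir array stood highest and the arrays without ritonavir lowest, and the tenofovir, ethanol and c9,t11-CLA values were low ones. Ritonavir over ethanol gave a log2 difference of 3.38, a 10.4-fold higher signal. With low values raised to the table median the difference was 2.24, or 4.72-fold, which is the more cautious figure. The 3 macrophage markers that reached the table median had a median difference of 0.31, with Cd68, which encodes a lysosomal protein of macrophages, at 1.83. Lyz2, low on the ritonavir array, was the 1 below 0, at -0.26. Mature adipocyte markers, the cells' own, had a median difference of -3.62 in the same comparison, and their part in the Il6 difference was not tested.

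**Figure D1:**
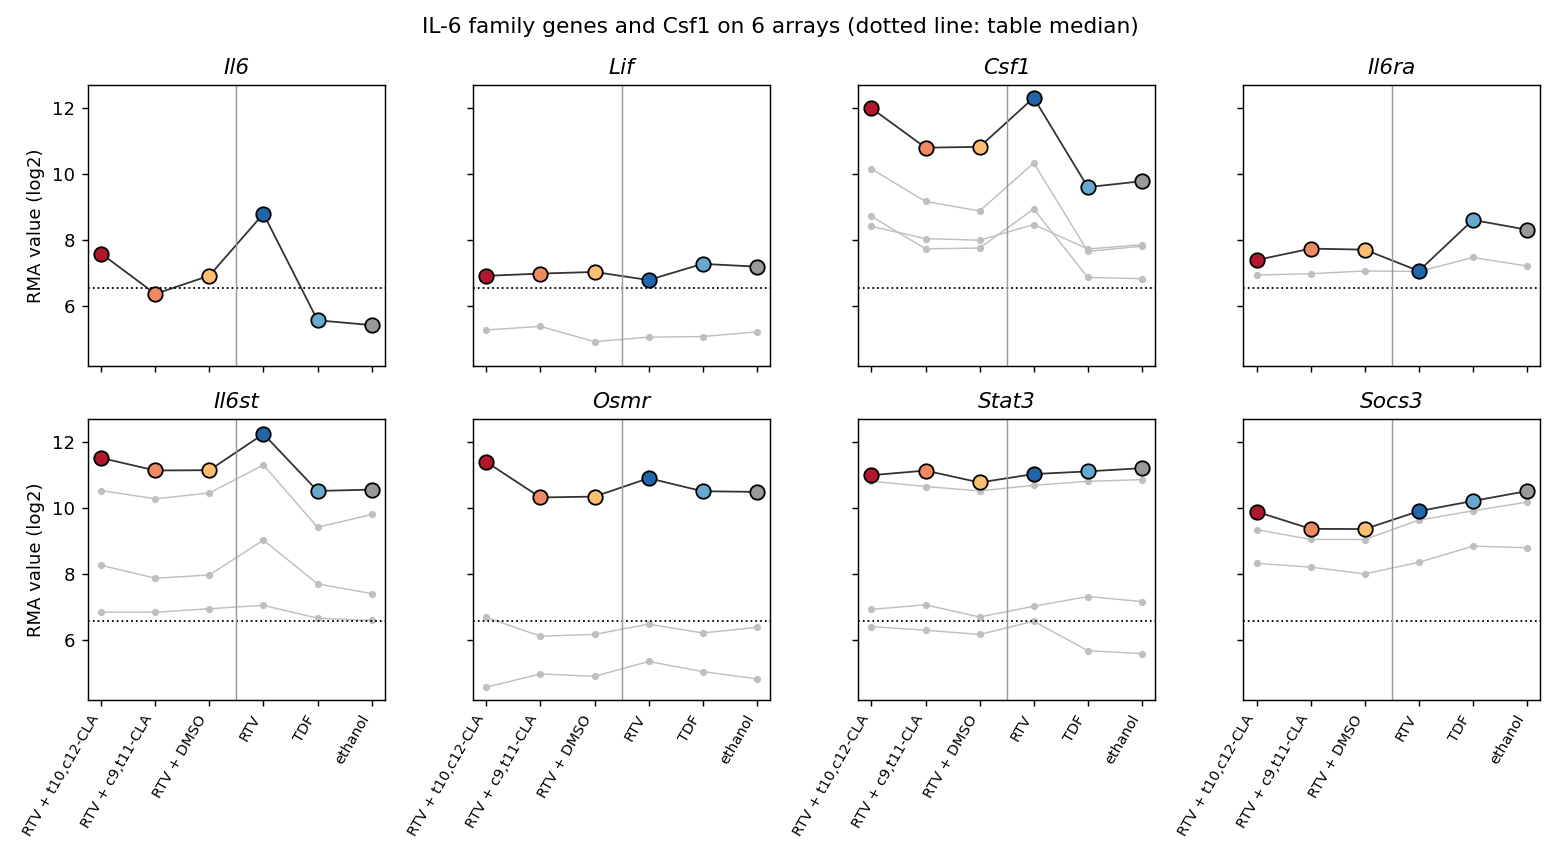
RMA value on the log2 scale (vertical axis) of the 8 genes on the 6 arrays, with the second experiment left of the grey line and the first right of it. RTV is ritonavir and TDF tenofovir. Coloured points are the probe set used for each gene, grey points its other probe sets, and the dotted line the table median of 6.55. Each point is 1 array of pooled RNA, so there are no error bars. Il6, Csf1 and Il6st were highest on the ritonavir array, and Osmr on the array with t10,c12-CLA.

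The isomers placed Il6 on opposite sides of the DMSO array. It differed by 0.67 with t10,c12-CLA (1.59-fold higher) and by -0.55 with c9,t11-CLA, where the value was low, or by -0.36 with that value raised. Set directly against each other at the same dose, t10,c12-CLA over c9,t11-CLA gave 1.22 (1.03 raised). The array of ritonavir with DMSO differed from the ritonavir array by -1.88 and from the ethanol array by 1.5, but by only 0.36 from the ethanol level once that was raised. Il6 had 1 probe set, so no second probe set checks these values.

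Csf1 followed the same order over the arrays with ritonavir. It stood at 12.31 on the ritonavir array, 9.60 on the tenofovir array and 9.78 on the ethanol array, and at 11.99 with t10,c12-CLA, 10.80 with c9,t11-CLA and 10.82 with DMSO. Every array with ritonavir lay above both arrays without it, and the arrays with c9,t11-CLA and DMSO were nearly equal. Only the array of ritonavir alone came from the same experiment as the arrays without it. For the second experiment, drug, vehicle and experiment cannot be told apart in such an order, for Csf1 and the other genes alike. Ritonavir over ethanol came to 2.53, or 5.78-fold, at rank 31 of 12386. All 4 probe sets of Csf1 were higher with ritonavir, by 0.61 to 2.53, and 3 of them by at least 2-fold. The array of ritonavir with DMSO exceeded the ethanol array by 1.04 and differed from the ritonavir array by -1.49. Over ethanol the 4 probe sets spanned 0.14 to 1.07, and 2 of them passed 2-fold. With t10,c12-CLA the value was 1.17 above DMSO (2.25-fold), with all 4 probe sets higher by 0.42 to 1.27, whereas c9,t11-CLA over DMSO was -0.02. The direct isomer difference was 1.19, where the 4 probe sets spanned 0.37 to 1.19.

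Lif, whose product keeps mouse embryonic stem cells undifferentiated, was near the table median throughout. Its values were 6.78 on the ritonavir array, 7.28 on the tenofovir array and 7.19 on the ethanol array, then 6.91 with t10,c12-CLA, 6.98 with c9,t11-CLA and 7.03 with DMSO. The whole range was 0.49, and the order was nearly the reverse of that of Il6. Ritonavir over ethanol was -0.41, within the robust SD of 0.436 that all genes had in that comparison (the median absolute deviation scaled to an SD). The second Lif probe set was low on all 6 arrays.

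Il6, Csf1 and Socs3 were picked from the 8 genes after their values were seen. Il6 and Csf1 had the largest differences among the ligands, and Socs3, the feedback gene, did not follow them. The 250 bases before the annotated start site of each are printed. They are RefSeq sequences of mouse build GRCm38.p6, 5′ to 3′ on the gene's strand: Il6 at chr5:30012864-30013113 (plus strand), Csf1 at chr3:107760470-107760719 (minus strand) and Socs3 at chr11:117969367-117969616 (minus strand). Capitals mark matches to 4 motifs searched on both strands.
Il6: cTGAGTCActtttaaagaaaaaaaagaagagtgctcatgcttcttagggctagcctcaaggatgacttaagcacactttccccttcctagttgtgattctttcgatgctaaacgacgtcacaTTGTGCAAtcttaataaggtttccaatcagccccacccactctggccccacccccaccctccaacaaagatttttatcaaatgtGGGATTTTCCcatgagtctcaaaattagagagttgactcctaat
Csf1: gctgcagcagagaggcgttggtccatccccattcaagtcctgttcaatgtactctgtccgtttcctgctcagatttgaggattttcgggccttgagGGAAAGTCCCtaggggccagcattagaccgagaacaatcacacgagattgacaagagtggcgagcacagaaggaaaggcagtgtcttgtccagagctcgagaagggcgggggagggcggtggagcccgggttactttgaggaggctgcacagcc
Socs3: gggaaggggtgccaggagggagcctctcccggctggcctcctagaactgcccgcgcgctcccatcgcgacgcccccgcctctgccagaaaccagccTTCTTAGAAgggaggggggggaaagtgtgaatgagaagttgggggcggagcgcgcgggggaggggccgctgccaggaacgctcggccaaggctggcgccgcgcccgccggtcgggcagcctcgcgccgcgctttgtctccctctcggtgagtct
The NF-kB consensus was matched 44 bases before the start of Il6 and, on the opposite strand, 154 bases before that of Csf1. Il6 also held a match to the C/EBP motif TTNNGCAA at 128 bases and to the AP-1 motif TGANTCA at 249 bases. Socs3 held a match to the STAT-type motif TTCNNNGAA at 154 bases, and no NF-kB match in this window. Over the 8 genes the NF-kB consensus occurred in 3 (Il6, Csf1 and Lif), AP-1 in 2 (Il6 and Lif), and the C/EBP and STAT-type motifs in 1 each. For ritonavir over ethanol Lif was at -0.41, and Il6st, with no NF-kB match, at 1.69. Any part of the motifs in the differences was not tested. Of 32851 RefSeq promoter windows of the same length, 7.25% held the NF-kB consensus, 9.56% the C/EBP, 6.75% the AP-1 and 7.02% the STAT-type motif. The matches overlapped each other in none of the 3 sequences shown, and they describe letters, not bound factors.

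The receptor chains split. Il6st, which encodes gp130, was 12.23 on the ritonavir array, 10.51 on the tenofovir array and 10.55 on the ethanol array. It was 11.51 with t10,c12-CLA, 11.13 with c9,t11-CLA and 11.14 with DMSO. As for Csf1, each array with ritonavir exceeded both arrays without it. The difference of ritonavir over ethanol was 1.69 (3.22-fold, rank 138), and all 4 probe sets were higher, by 0.46 to 1.69. Ritonavir with DMSO over ethanol was 0.59, and over ritonavir -1.10. The isomers differed from DMSO by 0.37 (t10,c12-CLA) and -0.01 (c9,t11-CLA), and 1 of 4 probe sets went the other way for t10,c12-CLA, at -0.11.

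Il6ra, the chain that makes a cell responsive to interleukin-6 itself, ran the opposite way. It was 7.06 on the ritonavir array, 8.61 on the tenofovir array and 8.31 on the ethanol array, and 7.39 with t10,c12-CLA, 7.74 with c9,t11-CLA and 7.71 with DMSO. All arrays with ritonavir were below both without it. Ritonavir over ethanol was -1.25, a 2.38-fold lower signal, but the other Il6ra probe set gave only -0.17, so the size depends on the probe set. Ritonavir with DMSO over ethanol was -0.60. The tenofovir array was 0.30 above ethanol, at rank 201 of 12386 in a comparison where all genes had a robust SD of 0.113, and both probe sets were higher, by 0.26 and 0.30. With t10,c12-CLA the difference from DMSO was -0.32, and with c9,t11-CLA it was 0.03.

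Osmr, which pairs with gp130 to receive oncostatin M, had another pattern. The first experiment gave 10.89 with ritonavir, 10.50 with tenofovir and 10.48 with ethanol. The second gave 11.38 with t10,c12-CLA, 10.31 with c9,t11-CLA and 10.34 with DMSO. Here the array with t10,c12-CLA was the highest, above the ritonavir array, and the other 4 lay between 10.31 and 10.50. The difference of t10,c12-CLA over DMSO was 1.05 (2.07-fold, rank 87) and over c9,t11-CLA 1.08. Ritonavir over ethanol was 0.41, and ritonavir with DMSO over ethanol -0.14. A second Osmr probe set, low on 5 of 6 arrays, differed by 0.52 for t10,c12-CLA over DMSO, and the third, low on all 6, by -0.33.

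Stat3, the factor that carries the signal to the nucleus, had the smallest range of the 8 genes. Its values were 11.02 on the ritonavir array, 11.10 on the tenofovir array, 11.20 on the ethanol array, 10.98 with t10,c12-CLA, 11.12 with c9,t11-CLA and 10.76 with DMSO, a range of 0.43. Ritonavir over ethanol was -0.18. The only position that stood out was DMSO: it was lowest, so that c9,t11-CLA over DMSO came to 0.36 (rank 218) and t10,c12-CLA over DMSO to 0.22, with all 4 probe sets higher in both. A probe set low on 5 arrays had 0.98 for ritonavir over ethanol, while the other 3 lay between -0.18 and -0.14.

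Socs3 had its highest values on the ethanol and tenofovir arrays, where Il6 was lowest. Its lowest values were those with DMSO and c9,t11-CLA, where Il6 was intermediate. It was 9.89 on the ritonavir array, 10.20 on the tenofovir array and 10.50 on the ethanol array, and 9.88 with t10,c12-CLA, 9.36 with c9,t11-CLA and 9.35 with DMSO. Every array with ritonavir lay below both without it. Ritonavir over ethanol was -0.61 (1.52-fold lower), with all 3 probe sets lower, by -0.61 to -0.44. Ritonavir with DMSO over ethanol was -1.15 (2.22-fold lower), again with all 3 probe sets lower. Tenofovir over ethanol was -0.30, where 1 of 3 probe sets had the other sign at 0.05. For t10,c12-CLA over DMSO the difference was 0.53, with 0.30 to 0.53 over the probe sets, and for c9,t11-CLA over DMSO it was 0.01. The probe set used carries the suffix for possible cross-hybridisation, and the one without it gave -0.44 for ritonavir over ethanol and -0.79, under 2-fold, for ritonavir with DMSO over ethanol. On that probe set both isomers lay above DMSO, t10,c12-CLA by 0.32 and c9,t11-CLA by 0.21, and the isomers were 0.12 apart, within the robust SD of 0.233 that all genes had between them.

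**Figure D2:**
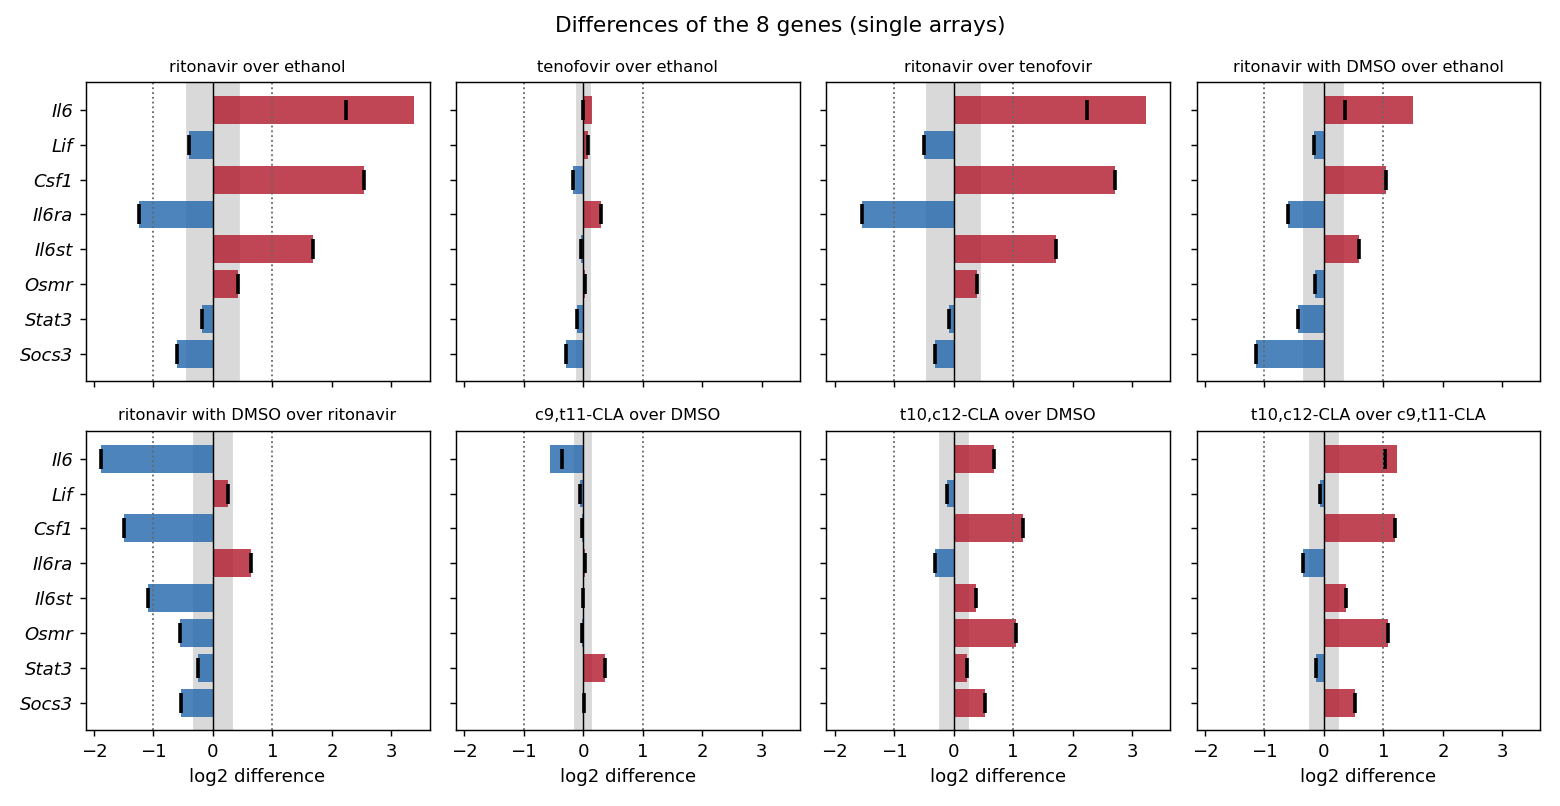
Log2 differences (horizontal axis) of the 8 genes in 8 comparisons of single arrays, each named with the numerator first. Bars are the values as deposited, red above 0 and blue below, black ticks the difference with low values raised to the table median, grey bands the robust SD of all genes, and dotted lines 2-fold. Il6, Csf1 and Il6st passed 2-fold upward for ritonavir over ethanol and Il6ra downward, while no bar passed it for tenofovir or c9,t11-CLA.

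Counted by comparison, 3 of the 8 genes (Il6, Csf1, Il6st) were at least 2-fold higher and 1 (Il6ra) lower for ritonavir over ethanol, where 4.56% of the 12386 genes were higher and 6.39% lower. Ritonavir over tenofovir shares the ritonavir array and gave the same counts, against 4.76% higher and 6.49% lower of all genes. Its values were 3.23 for Il6 (2.24 raised), 2.71 for Csf1, 1.73 for Il6st and -1.55 for Il6ra. For ritonavir with DMSO over ethanol 2 genes (Il6, Csf1) were higher and 1 (Socs3) lower, against 1.52% and 2.99%. Only 1 was higher with low values raised, with the mean of all probe sets or with the lowess trend removed. Without suffixed probe sets 0 were lower. Ritonavir with DMSO over ritonavir had 0 higher and 3 lower (Il6, Csf1, Il6st), against 2.83% and 2.07%. These last comparisons cross the 2 experiments, whose differences in vehicle and run cannot be told apart.

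For tenofovir over ethanol 0 members were 2-fold apart in either direction, as were 0% of all genes, and the members lay between -0.30 (Socs3) and 0.30 (Il6ra). For c9,t11-CLA over DMSO the count was 0, against 0% higher and 0.00807% lower, with members between -0.55 (Il6) and 0.36 (Stat3). For t10,c12-CLA over DMSO 2 were higher (Csf1, Osmr) and 0 lower, against 0.783% and 1.05%. With the mean of all probe sets neither passed 2-fold, Csf1 at 0.96 and Osmr at 0.41. Between the isomers, the 1 pair of related compounds at matched dose and time, 3 were higher with t10,c12-CLA (Il6, Csf1, Osmr) and 0 lower, against 0.953% and 1.53%. With the mean of all probe sets 1 was higher. Only 1 of 4 Csf1 probe sets and 1 of 3 Osmr probe sets passed 2-fold there, and those of Osmr spanned -0.40 to 1.08. The conjugated double bonds sit at different carbons in the isomers, and which of the pair is cis and which trans is exchanged. Lif and Stat3 differed by -0.07 and -0.14 between them, and with 1 array each no interval of these differences can be given. With t10,c12-CLA the mature adipocyte markers were lower than with c9,t11-CLA, by a median of -1.41, with 6 of 10 at least 2-fold lower. Cd68 was 10.10 with t10,c12-CLA, 8.11 with c9,t11-CLA and 8.43 with DMSO, a difference of 1.67 over DMSO and 1.99 over c9,t11-CLA. The 3 macrophage markers that reached the table median had medians of 0.43 and 0.48 in these comparisons, with Cd68 the 1 past 2-fold, while the other 7 were low on every array. Lyz2 of the 3 had -0.22 over DMSO and 0.06 over c9,t11-CLA, and was low with both isomers. The part of these markers in the differences of Csf1, Osmr and Il6 was not tested.

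**Figure D3:**
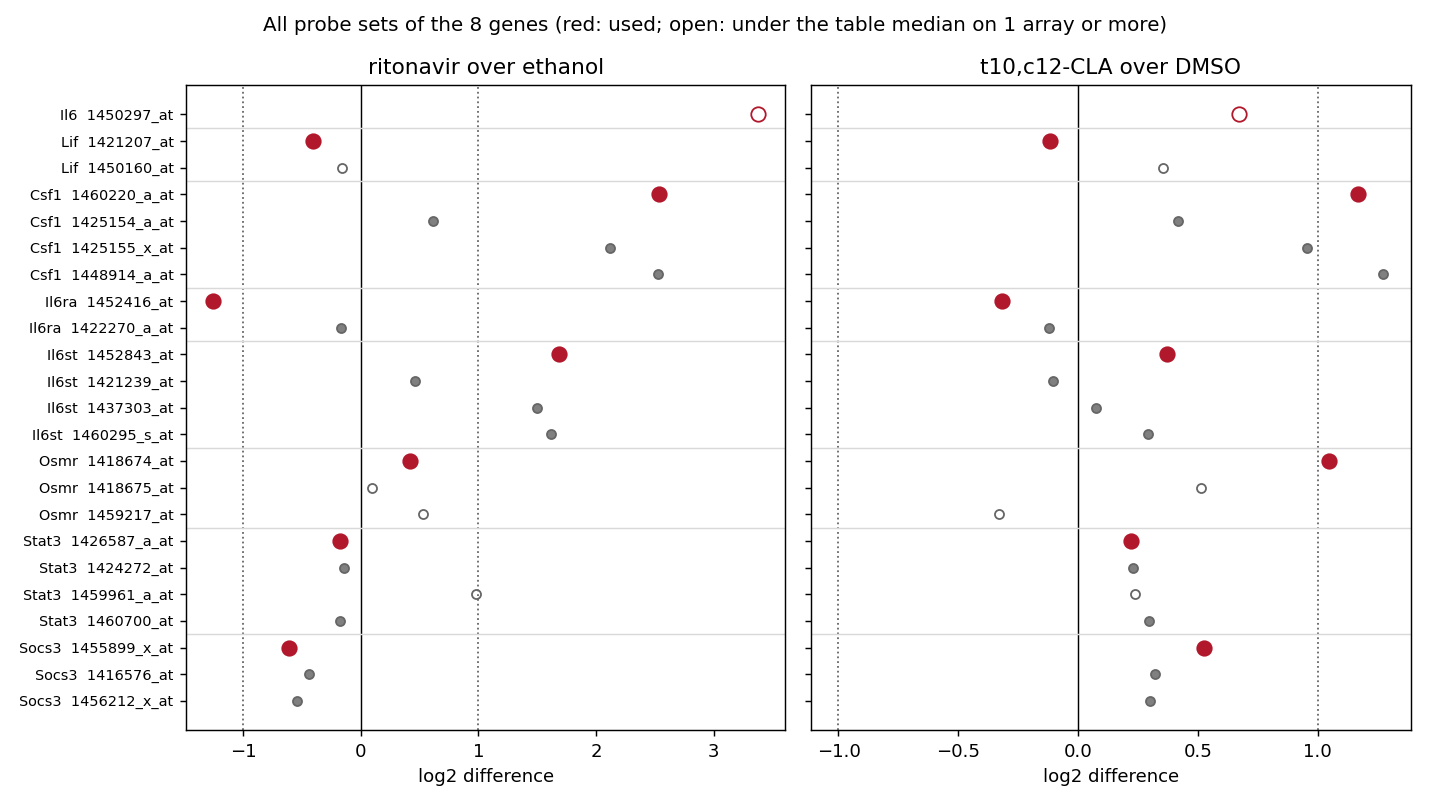
Log2 difference (horizontal axis) of each of the 23 probe sets of the 8 genes, for ritonavir over ethanol (left) and t10,c12-CLA over DMSO (right). Red points are the probe sets used, and open points were under the table median on at least 1 array. Dotted lines mark 2-fold. The probe sets of Csf1 all lay above 0 in both panels, those of Il6ra all below 0, and those of Osmr lay on both sides of 0 for t10,c12-CLA.

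The rest of the pathway was read from lists. Their counts stand beside the shares of all genes, 4.56% higher and 6.39% lower for ritonavir over ethanol. For t10,c12-CLA over DMSO these were 0.783% and 1.05%. Of 10 listed IL-6 family ligands, 7 had a named probe set and 6 reached the table median. For ritonavir over ethanol Il6 was the 1 ligand at least 2-fold higher and 0 were lower, with 5 of 6 below 0 and a median of -0.35, beside 0.00 for all genes. Clcf1, a ligand of the ciliary neurotrophic factor receptor, differed between the isomers as Osmr did. It was 9.80 with t10,c12-CLA, 8.37 with c9,t11-CLA and 8.74 with DMSO, a difference of 1.06 over DMSO and 1.43 over c9,t11-CLA, with all 3 probe sets of the same sign in both. Ritonavir with DMSO over ethanol gave Clcf1 a difference of -1.03, which was -0.92 with the mean of all probe sets and -0.94 without suffixed ones, both under 2-fold. Of 7 listed receptor chains 5 reached the median, and Il6st (higher) and Il6ra (lower) were the only ones 2-fold apart for ritonavir over ethanol.

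Kinases and STAT factors had no member 2-fold apart in any of the 8 comparisons (9 genes). Their median was -0.18 for ritonavir over ethanol and 0.13 for t10,c12-CLA over DMSO. Of all genes 4.56% were higher and 6.39% lower for ritonavir over ethanol, so 0 of 9 is not far from the share of all genes. Among 16 inhibitors of the pathway, Socs2, which restrains growth hormone signalling, was the 1 at least 2-fold higher for ritonavir over ethanol and 0 were lower. As a count, 1 of 16 higher is near the share of all genes. Socs2 stood at 12.29 on the ritonavir array, 10.75 on the tenofovir array and 10.78 on the ethanol array, a difference of 1.51 over ethanol that all 6 probe sets shared in sign. So Socs2 and Socs3 were on opposite sides of the ethanol array. For t10,c12-CLA over DMSO 0 of the 16 were 2-fold apart, and their median was 0.06.

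Genes known as STAT3 targets did not go one way. Of 24 that reached the median, 1 was at least 2-fold higher and 6 lower for ritonavir over ethanol. The shares of all genes were 4.56% higher and 6.39% lower, so 1 of 24 is near its share and 6 of 24 above it. The list median was -0.16. Ccnd1, the gene of cyclin D1, was 10.96 on the ritonavir array and 8.91 on the ethanol array, a difference of 2.05. The acute phase genes Hp (haptoglobin, -4.77), Lcn2 (lipocalin 2, -4.23) and Lrg1 (-2.72, low on the ritonavir array) had the largest differences downward. Mature fat cells are themselves a source of haptoglobin and lipocalin 2, and their part in these differences was not tested. For ritonavir with DMSO over ethanol 0 of 24 were higher and 5 lower, against 1.52% and 2.99% of all genes. There Hp was at -3.69 and Lcn2 at -3.83, while the mature adipocyte markers had a median of -0.96. For t10,c12-CLA over DMSO 3 of 24 were higher and 0 lower, against 0.783% and 1.05% of all genes. The 3 were Timp1, an inhibitor of matrix metalloproteinases, at 1.54, Ccnd1 at 1.40 and Osmr. For c9,t11-CLA over DMSO 0 were 2-fold apart, and Timp1 differed by 0.09 and Ccnd1 by 0.05. Timp1 was 11.16 with t10,c12-CLA, 9.71 with c9,t11-CLA and 9.62 with DMSO.

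Among growth cytokines and their receptors, 6 of 11 listed genes reached the table median. Csf1 and Kitl, the gene of stem cell factor, were the 2 at least 2-fold higher for ritonavir over ethanol, and 0 were lower. Kitl differed by 1.14 with all 4 probe sets of that sign. Of all genes 4.56% were higher and 6.39% lower. With the mean of all probe sets Kitl was at 0.91, under 2-fold, and Csf1 was the 1 gene higher. Csf1 alone passed 2-fold for t10,c12-CLA over DMSO. Csf2, Csf2rb, Csf3r and Kit were low on every array.

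Of 19 regulators of Il6 transcription or of its mRNA, 1 was at least 2-fold higher and 4 lower for ritonavir over ethanol. The shares of all genes were 4.56% and 6.39%, so 1 of 19 is near its share and 4 of 19 above it. The list median was -0.15. Activators and inhibitors stand together in this list, so its counts and median give no direction for Il6. The higher one was Atf3, a stress-induced factor, at 1.11. Fosl1, an AP-1 subunit, was 7.89 on the ritonavir array, 12.11 on the tenofovir array and 12.26 on the ethanol array, a difference of -4.37 over ethanol. Tnfaip3, an NF-kB target that dampens the NF-kB pathway, differed by -1.30 and Jun, another AP-1 subunit, by -1.28. For t10,c12-CLA over DMSO 0 of these 19 were 2-fold apart. The 3 sheddases of the list, which release receptor ectodomains, had no 2-fold difference in any comparison, and Adam10 had 0.82 for ritonavir over ethanol.

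**Figure D4:**
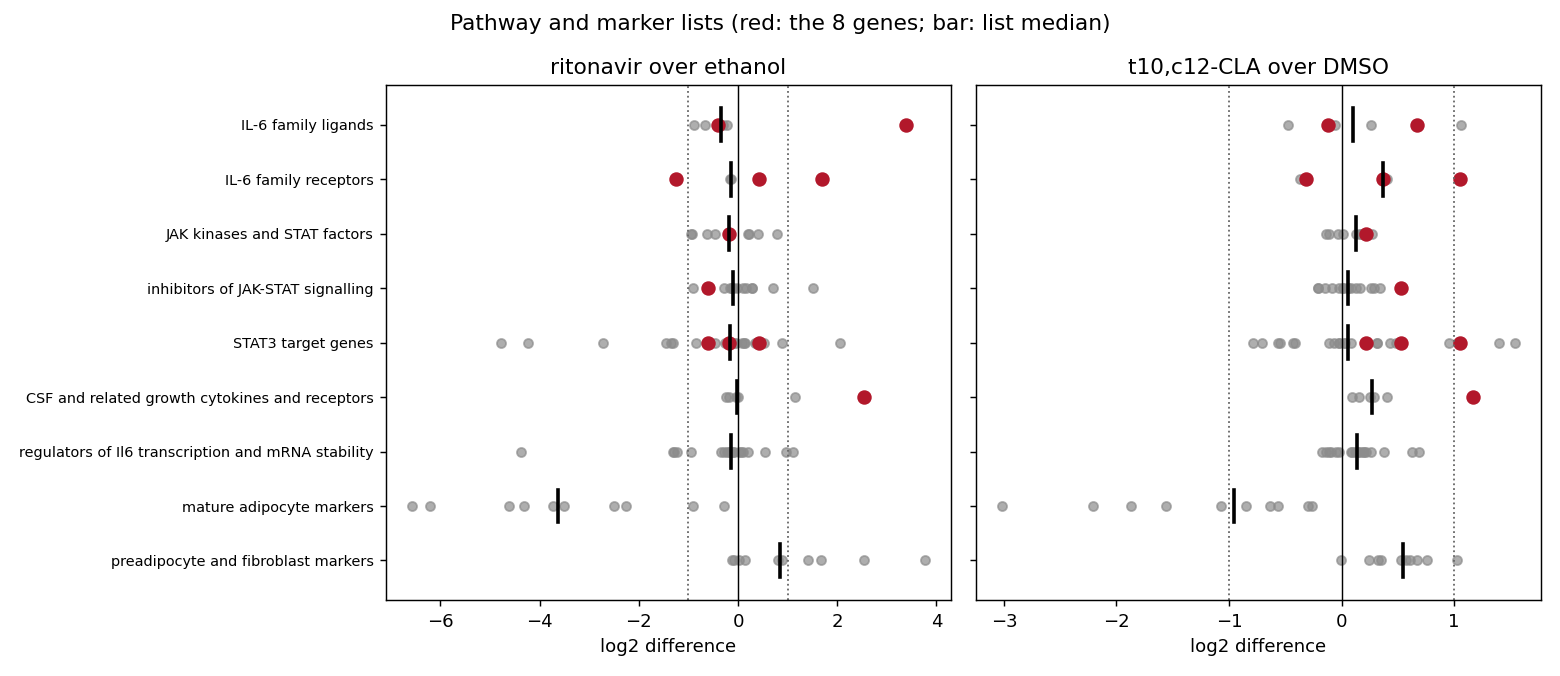
Log2 difference (horizontal axis) of the listed genes that reached the table median, by list, for ritonavir over ethanol (left) and t10,c12-CLA over DMSO (right). The macrophage, endothelial and sheddase lists are not drawn. Red points are members of the 8 genes, grey points other genes, black bars list medians and dotted lines 2-fold. Medians of the signalling lists lay between -0.35 and 0.37, while mature adipocyte markers had medians of -3.62 and -0.96.

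Preadipocyte and fibroblast markers lay on the same side as Il6 and Csf1 in some comparisons but not in all. Their median was 0.85 for ritonavir over ethanol, with 4 of 10 at least 2-fold higher and 0 lower. Of all genes 4.56% were higher and 6.39% lower. Tagln (3.77), Acta2 (2.54) and Thy1 (1.67) led, while Dlk1 (-0.11) and Pdgfra (-0.07) were below 0 and Col3a1 (0.02) and Vim (0.15) near 0. For t10,c12-CLA over DMSO the median was 0.55, with Acta2 at 1.02 the 1 gene past 2-fold, against 0.783% of all genes higher. It was 0 genes with the mean of all probe sets or without suffixed ones. For ritonavir with DMSO over ethanol the median was -0.44, with 0 higher and 2 of 10 (Dlk1 and Col1a1) at least 2-fold lower. The shares of all genes were 1.52% and 2.99%. In that comparison Csf1 was 1.04 above ethanol and Il6 1.5, or 0.36 with the low ethanol value raised. For ritonavir with DMSO over ritonavir, where Il6, Csf1 and Il6st were lower, the median was -1.45. There 0 were higher and 7 of 10 at least 2-fold lower, Tagln, Col1a1 and Acta2 among them, against 2.83% and 2.07% of all genes. The part of these cells in the member differences was not tested.

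Over the 6 arrays, as a description of 6 values that share 1 platform and 2 experiments, Il6 correlated with Il6st at a Pearson r of 0.99, with Csf1 at 0.96, with Il6ra at -0.95 and with Socs3 at -0.37. Among 1821 genes that ranged over at least 1 log2 unit, the patterns most like that of Il6 were those of Rab6b, Snhg6 and Snhg8 (r of 0.99 or more). Those most like Csf1 were Antxr1, Nox4 and Mybbp1a, and those most like Il6st were Fnbp1, Arhgap20 and Myo7a. Il6ra was matched most closely by Tmem241, Klra2 and Polr3g. For Osmr they were Slpi, Ptgr1 and Ctla2b (r of 0.98, 0.97 and 0.97), and for Socs3 Lmna, Tnfsf9 and Frmd4a (r of 0.99, 0.98 and 0.98). Slpi was 8.44 with t10,c12-CLA, 7.12 with c9,t11-CLA and 7.12 with DMSO, and so shared the high t10,c12-CLA value of Osmr. Several of these patterns rest on low values. Il6 itself was under the table median on 3 of the 6 arrays, Nox4 on 5, Klra2 and Ctla2b on 4, and Tmem241 and Myo7a on 1.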

How the data were processed

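Biotin-labelled RNA of the 6 pools was hybridised to an Affymetrix mouse array for each group, per the labels' protocols. The single deposited table holds log2 values, which the authors made with RMA in Affymetrix Expression Console, per the submitters' processing notes. Version and settings were not given in the sources used here. This method equalises the arrays' distributions, so a shift shared by most genes would be removed. The table has no detection calls, and the median of the table is a convention.

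Of 45101 probe sets, 34958 had 1 symbol in the platform annotation, 932 had several symbols and were left out, and 9211 were not in it. Symbols were updated by gene identifier. Log2 differences of single arrays were computed for 8 comparisons and called at 2-fold, with no test. The number of arrays limits the precision. The 8 genes and the 12 gene lists were chosen with earlier results of these data known. From each list up to 3 genes in each direction, by size among those at least 2-fold apart, were to be named in a comparison, and 3 genes of most similar pattern per member with a range of at least 1. Cd68, Adam10, Lep and listed genes given as low or under 2-fold were named after their values were seen. Alternatives were other probe set rules, low values raised or unfiltered, quantile normalization, lowess with a span of 0.3, 1.5-fold and 3-fold thresholds, and the other ritonavir array. Counting was tested on simulated data whose noise was set from tenofovir over ethanol (robust SD 0.113, against 0.436 for ritonavir over ethanol). That test therefore gives no error rate for the ritonavir comparisons. Python 3.11.15, numpy 2.4.6, pandas 2.3.3, statsmodels 0.14.6 and matplotlib 3.10.9 were used.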

Additional observations from a re-analysis of the deposited data

Results flagged for a closer look

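Il6 was picked out because the isomers placed it on opposite sides of the DMSO array, each by more than the robust SD of all genes. The direct difference of t10,c12-CLA over c9,t11-CLA was 1.22, from 7.59 and 6.36, and whether the isomers differ was not tested, as each is 1 array. The c9,t11-CLA value was under the table median.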

How the results depend on the processing

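With 1 array per group no replicate could be left out. No paired analysis was possible because each group has 1 array and the result comes from no test. A difference was taken as moved where an alternative shifted it by more than the robust SD of all genes or brought it under 2-fold. Of 392 alternative values of member differences 354 were not moved and 0 called ones reversed sign. Of 132 alternative counts 113 stayed within 1.5 times. Part of this is by construction. All 8 genes passed the filter on low values, so dropping it could not change its 64 values. Raising low values could change only Il6, and leaving out suffixed probe sets only Stat3 and Socs3. Quantile normalization acted on arrays that RMA had already equalised, and all 64 of its values stayed. The mean of all probe sets could not change Il6, which had 1 probe set. It gave no value for Lif, whose mean was under the table median on every array. With the mean of all probe sets 14 values moved and 42 did not, and with the other ritonavir array 12 moved and 4 did not. Of 600 alternative list medians 18 moved, as did 130 of 1584 list counts. The causes were not tested, except where the construction shows them. With the mean of all probe sets, ritonavir over ethanol was 1.95 for Csf1 and -0.71 for Il6ra, leaving 0 members lower (0 also over tenofovir), and t10,c12-CLA over DMSO was 0.96 for Csf1 and 0.41 for Osmr, leaving 0 members higher, 1 higher between the isomers and 1 for ritonavir with DMSO over ethanol. With low values raised, Il6 was 2.24 for ritonavir over ethanol and -0.36 for c9,t11-CLA over DMSO, and 1 member was higher for ritonavir with DMSO over ethanol, as with the lowess trend removed. Without suffixed probe sets, c9,t11-CLA over DMSO was 0.21 for Socs3 and 0.13 for Stat3, and 0 members were lower for ritonavir with DMSO over ethanol. With the array of ritonavir with DMSO in place of ritonavir, the difference over ethanol was 1.5 for Il6, 1.04 for Csf1, -0.60 for Il6ra, 0.59 for Il6st, -0.14 for Osmr and -1.15 for Socs3, and 0 members were lower over tenofovir. At 1.5-fold, 2 members were lower for ritonavir over ethanol and 2 for ritonavir with DMSO over ethanol, and 1 was higher for ritonavir with DMSO over ritonavir. At 3-fold, 0 were lower for ritonavir over ethanol and over tenofovir, 0 higher and 0 lower for ritonavir with DMSO over ethanol, 1 lower for ritonavir with DMSO over ritonavir, and 0 higher for t10,c12-CLA over DMSO or over c9,t11-CLA.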
